A study of Mus musculus with 4 samples.

Results

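Galectins are lectins that bind beta-galactosides, and 5 of their genes, Lgals1, Lgals2, Lgals3, Lgals4 and Lgals9, were followed by symbol among the 28694 genes counted in single cells of the mouse intestine that are labelled as goblet cells. The cells came from the distal colon (DC, 2 libraries) and from section 8 of the small intestine (Si8, 2 libraries). All mice were RedMUC298trTg, a transgenic strain in which goblet cells carry mCherry, aged 6 to 8 weeks, and both tissues thus share the transgene. Live cells were sorted by mCherry, against a C57Bl6 mouse as negative control, and made into droplet libraries that count unique molecular identifiers (UMIs) at the 3' end of the RNA. The sources used here do not give which mCherry gate went into each library, or how many mice, and p-values measure only the spread between these libraries, which may be technical.

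Galectins are made without a signal sequence, act inside the cell and leave it by an unconventional route to bind lactosamine on glycoproteins. Galectin-1, encoded by Lgals1, and galectin-2, encoded by Lgals2, have a single sugar-binding domain and form dimers. Galectin-3 (Lgals3) is the chimeric form with a tail that lets it form larger assemblies, while galectin-4 (Lgals4) and galectin-9 (Lgals9) carry a pair of different domains in one chain. In the gut, galectin-4 is known from the brush border and from apical trafficking, galectin-3 from surface epithelium and galectin-9 as a ligand of immune cell receptors.

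By GENCODE M21 (GRCm38) all 5 are protein-coding genes. Lgals1 (ENSMUSG00000068220) lies on chromosome 15 at 78926725 to 78930465 on the plus strand, and Lgals2 (ENSMUSG00000043501) on the minus strand of the same chromosome at 78850860 to 78855529, 71195 bp away. Lgals3 (ENSMUSG00000050335) lies on chromosome 14 at 47367751 to 47386160 (plus), Lgals4 (ENSMUSG00000053964) on chromosome 7 at 28833854 to 28841708 (plus) and Lgals9 (ENSMUSG00000001123) on chromosome 11 at 78962974 to 78984946 (minus). Lgals2 overlaps Cdc42ep1, a gene of the opposite strand, which in Muc2-high cells (defined with the states) had 18.8 and 19.2 CPM in DC, against 2.18 and 2.51 CPM in Si8. CPM is the share of a library's or a cell's UMIs that a gene takes, scaled to 1000000. Use of the read strand is not stated in the sources used here, so a share of the few Lgals2 UMIs in DC cannot be told apart from that gene. Lgals6, a near copy of Lgals4 in some mouse strains, was not analysed here, and its reads would not be told apart from those of Lgals4.

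The promoters are shown as sequences, and no link between their motifs and the levels of these genes was tested. Each runs from 250 bases before to 50 bases after the RefSeq start (GRCm38.p6), 5' to 3' on the gene's own strand: Lgals2 chr15:78855480-78855779 (minus), Lgals9 chr11:78984875-78985174 (minus), Lgals3 chr14:47373610-47373909 (plus) and Lgals4 chr7:28833544-28833843 (plus). For Lgals1 no promoter was used here, and the RefSeq start of Lgals3 lies within the GENCODE span of the gene. The whole Lgals4 window lies before the GENCODE start of that gene, 28833854. Capitals mark matches to 5 motifs searched on both strands, and the other letters are in lower case. Each of the 5 motifs matched in some window shown.
Lgals2: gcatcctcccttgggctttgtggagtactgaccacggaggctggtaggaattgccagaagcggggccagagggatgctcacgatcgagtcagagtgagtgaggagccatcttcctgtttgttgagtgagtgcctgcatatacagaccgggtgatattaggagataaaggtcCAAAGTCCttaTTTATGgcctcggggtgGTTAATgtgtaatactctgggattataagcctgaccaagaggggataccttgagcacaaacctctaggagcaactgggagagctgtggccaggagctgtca
Lgals9: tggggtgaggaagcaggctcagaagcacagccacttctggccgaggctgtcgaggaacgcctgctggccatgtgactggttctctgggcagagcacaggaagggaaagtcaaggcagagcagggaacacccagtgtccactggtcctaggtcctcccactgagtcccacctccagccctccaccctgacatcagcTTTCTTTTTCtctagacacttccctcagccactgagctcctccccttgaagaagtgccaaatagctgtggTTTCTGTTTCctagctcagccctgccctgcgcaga
Lgals3: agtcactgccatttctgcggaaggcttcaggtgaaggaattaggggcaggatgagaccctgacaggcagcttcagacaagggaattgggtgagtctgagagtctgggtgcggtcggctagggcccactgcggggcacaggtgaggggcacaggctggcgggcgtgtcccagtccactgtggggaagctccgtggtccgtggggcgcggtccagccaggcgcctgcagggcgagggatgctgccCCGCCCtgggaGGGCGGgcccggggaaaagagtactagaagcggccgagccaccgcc
Lgals4: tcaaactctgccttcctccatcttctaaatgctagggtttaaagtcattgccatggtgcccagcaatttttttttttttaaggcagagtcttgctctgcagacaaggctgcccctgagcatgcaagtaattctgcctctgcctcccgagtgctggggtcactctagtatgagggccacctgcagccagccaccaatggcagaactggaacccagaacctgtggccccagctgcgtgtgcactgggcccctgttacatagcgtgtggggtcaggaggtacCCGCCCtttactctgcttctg

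The capitals in Lgals2 are the HNF4-type motif CAAAGTCC, which starts 79 bases before the RefSeq start, a CDX-type motif (TTTATG, 68 bases before) and an HNF1 half-site (GTTAAT, 51 bases before). None of the other 3 windows held any of these, and among all 32851 promoters of the same length 1.42% held the first, 11.9% the second and 7.1% the third. The capitals in Lgals9 are a pair of matches to an interferon-response type motif (GAAA, any 2 bases, GAAA), both read on the opposite strand, and 3.44% of all promoters held this motif. The capitals in Lgals3 and Lgals4 are GC boxes (GGGCGG or its reverse), which 35.7% of all promoters held. No motif overlapped another, and a match describes letters, not a bound site.

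Each of the 4 libraries, DC 1 and 2 and Si8 1 and 2, held 26075303 to 66880457 UMIs. After filters 10243 of 10827 barcodes were kept, 1831 and 4724 in DC and 1491 and 2197 in Si8, and 45 barcodes occurred in more than 1 library. Cells were assigned to 4 states by gates in which no galectin took part. Cycling cells had at least 1000 CPM summed over 28 cell cycle genes; of the other cells, Mxd1-high cells had at least 2000 CPM of Muc2 and 500 CPM of Mxd1, Muc2-high cells 2000 CPM of Muc2 and less Mxd1, and Muc3-high cells 200 CPM of Muc3 and less Muc2. Muc2 is the gel-forming mucin of goblet cells, Muc3 a transmembrane mucin, and Mxd1 a transcriptional repressor that opposes Myc. These are ranges, not cell types: 7.97% of kept cells lay between 0.8 and 1.25 times the Muc2 cut and 1.65% near the Mxd1 cut, and 12.3% and 5.52% of DC cells and 2.55% and 5.23% of Si8 cells passed no gate.

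The Muc2-high state held 949 and 2674 DC cells and 961 and 1331 Si8 cells, the cycling state 378 and 979 against 147 and 559, the Muc3-high state 161 and 720 against 33 and 126, and the Mxd1-high state 118 and 90 against 312 and 66. A list of 12 goblet genes summed to 12065 to 13970 CPM in the Muc3-high cells of DC, against 65998 to 72763 CPM in the Muc2-high cells of DC. In Si8 it summed to 8058 to 9006 CPM in Muc3-high cells, against 217475 to 221684 CPM in Muc2-high cells. A list of 12 small intestinal absorptive markers summed to 22182 and 27309 CPM in the Muc3-high cells of Si8, against 2567 and 5197 CPM in its Muc2-high cells. The part of those absorptive transcripts in the galectin values of the Muc3-high state was not tested. Mxd1-high cells were shallow, with a median of 4311 and 4112 UMIs in DC and 6420.5 and 13481 in Si8, against 10915 to 19740 in Muc2-high cells.

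**Figure D1:**
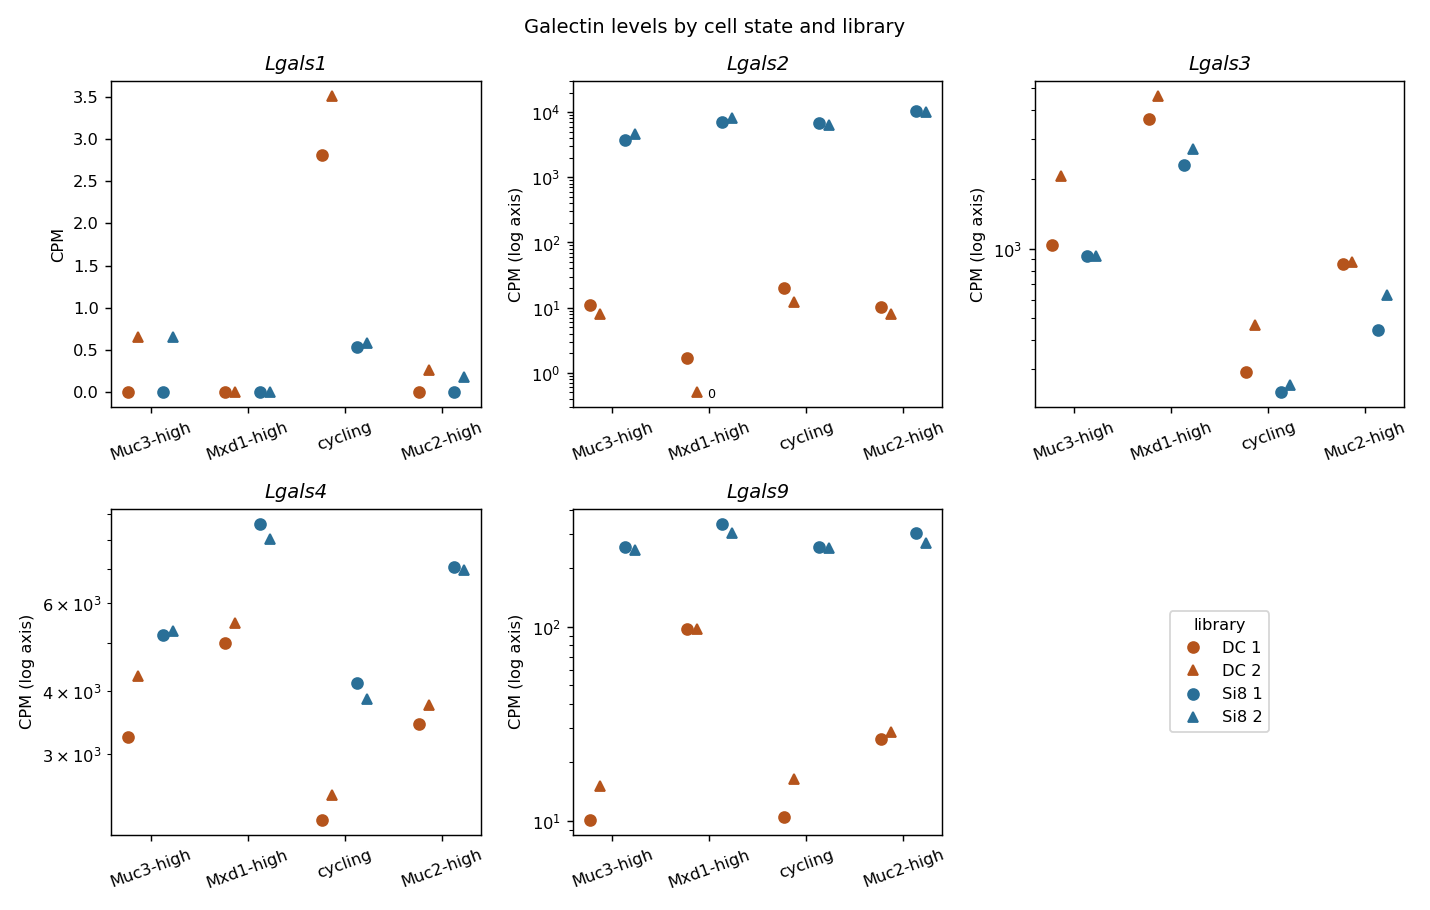
Level of each galectin (CPM, summed over the cells of a state) in each of the 4 libraries, DC left of Si8; the axis is logarithmic except for Lgals1, and 1 library at 0 for Lgals2 is drawn at the foot of its panel and marked 0. Lgals2 and Lgals9 separate the tissues in each state, while Lgals3 has its highest levels in Mxd1-high cells.

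Lgals2 was far higher in Si8 than in DC in these cells. In Muc2-high cells it had 10.1 and 8.05 CPM in DC 1 and DC 2, against 10320 and 10068 CPM in Si8 1 and Si8 2. In Muc3-high cells DC had 11.1 and 7.94 CPM, against 3753 and 4663 CPM in Si8. In cycling cells DC had 156 and 223 UMIs (16.1 ± 5.46 CPM, SD), against 26031 and 99704 UMIs in Si8 (6928 and 6417 CPM). The tissues did not overlap in any of these states. Of the 4 galectins tested in Muc2-high cells 3 passed the threshold (adjusted p under 0.05, edgeR quasi-likelihood test over all genes), all lower in DC, where 39.3% of the 12151 genes tested passed and 20.7% were lower. Lgals2 was the largest of the 3, with a log2 fold change (DC minus Si8) of -10.59 ± 0.22 (SE, n = 2 libraries per tissue, edgeR adjusted p = 9.63e-06).

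In Muc3-high and cycling cells the log2 fold change of Lgals2 was -8.94 ± 0.31 (edgeR adjusted p = 1.97e-09) and -8.83 ± 0.31 (edgeR adjusted p = 1.23e-05). In Mxd1-high cells DC held 1 Lgals2 UMI and Si8 26690, with 7181 and 8259 CPM in Si8. Si8 exceeded DC 8141-fold there, with a 95% counting interval of 1461 to 321546, which like all intervals here covers counting error only. Free RNA in droplets gives UMIs also in cells that should lack a gene. In DC 2, 11 kept cells with at least 3 UMIs of immune markers had 1 Lgals2 UMI, too few to set a background level, at a median depth of 7017 UMIs. The Mxd1-high cells of DC 2 had 0 Lgals2 UMIs of 491128, with a 95% upper limit of 7.51 CPM, against 8.05 CPM in its Muc2-high cells. The part of free RNA in the Lgals2 values of DC was not tested. In Si8 1, 15 such cells had 492 CPM at a median of 14071 UMIs, and in Si8 2, 35 had 839 CPM at a median of 113925 UMIs, both below each state of the same library. The immune cut is a fixed count, which deep cells pass more easily. These cells are not shown to lack Lgals2, so they set no background level either. After thinning to 2000 UMIs per cell, 2.0% and 1.98% of Muc2-high cells in DC had an Lgals2 UMI (10.1% and 8.0% unthinned), against all 961 cells in Si8 1 and 99.7% in Si8 2.

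Within Si8, Lgals2 was highest in Muc2-high cells. It averaged 4208 ± 644 CPM in Muc3-high cells, 7720 ± 762 CPM in Mxd1-high cells, 6672 ± 362 CPM in cycling cells and 10194 ± 178 CPM in Muc2-high cells (SD, n = 2). Muc3-high cells were below and Muc2-high cells above each other state in both libraries, while Mxd1-high and cycling cells were apart by little more than the spread of Mxd1-high cells. The log2 difference within Si8, from 1 fit over the 16 sums of 4 states by 4 libraries, was -1.75 ± 0.14 for Muc3-high minus Muc2-high and -1.13 ± 0.14 for cycling minus Muc2-high. For Mxd1-high minus Muc2-high it was 0.08 ± 0.14 in the scaling of the fit, although the CPM were lower in Mxd1-high cells of both libraries, so its direction turns with the scaling. A list of 8 Paneth cell markers, 7 of them in the tables, was likewise lowest in Muc3-high and highest in Muc2-high cells of Si8. It summed to 301 and 1434 CPM in Muc3-high cells, 3411 and 2802 CPM in Mxd1-high cells, 2613 and 3493 CPM in cycling cells and 9068 and 12779 CPM in Muc2-high cells. In the Muc2-high cells of DC it summed to 105 and 42.1 CPM, with Defa17 and Defa21 at 0, and its part in the Lgals2 values was not tested. Single Muc2-high cells in Si8 ran between 4705 CPM (10th percentile) and 13301 CPM (90th) in Si8 1 and between 6464 and 13604 CPM in Si8 2.

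Lgals9 was likewise higher in Si8. In Muc2-high cells it had 26.4 and 28.8 CPM in DC, against 304 and 269 CPM in Si8. In Mxd1-high cells it had 96.8 and 97.7 CPM in DC, against 340 and 305 CPM in Si8. Both Si8 libraries exceeded both DC libraries in each of the 4 states. The log2 fold change, DC minus Si8, was -3.82 ± 0.13 in Muc2-high cells (edgeR adjusted p = 3.18e-05), -4.33 ± 0.23 in Muc3-high (3.02e-08), -2.18 ± 0.26 in Mxd1-high (0.000224) and -4.31 ± 0.23 in cycling cells (4.35e-05). In Mxd1-high cells 3 of 4 tested galectins passed, all lower in DC, against 22.6% of all 5481 genes tested and 10.9% lower. Within DC, Lgals9 was 97.3 ± 0.63 CPM in Mxd1-high and 27.6 ± 1.69 CPM in Muc2-high cells, while within Si8 it was 322 ± 25.2 and 286 ± 24.4 CPM (SD, n = 2).

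Within the 4 states, Lgals4 was lower in DC by a smaller factor. In Muc2-high cells it had 3443 and 3766 CPM in DC, against 7057 and 6971 CPM in Si8. In Mxd1-high cells it had 4994 and 5477 CPM in DC, against 8631 and 8042 CPM in Si8. In cycling cells it had 2221 and 2483 CPM in DC, against 4152 and 3863 CPM in Si8. The tissues did not overlap in any of the 4 states. Cells that passed no gate went the other way, with 3089 and 3225 CPM in DC, against 1525 and 1705 CPM in Si8. Of these ungated cells, 12 of 38 in Si8 1 and 30 of 115 in Si8 2 passed the immune cut, against 0 of 225 in DC 1 and 8 of 261 in DC 2. The part of immune-marked cells in this was not tested. The log2 fold change was -1.40 ± 0.12 in Muc2-high cells (edgeR adjusted p = 0.000409), -1.12 ± 0.27 in Mxd1-high cells (0.0132) and -0.87 ± 0.16 in cycling cells (0.00787). In cycling cells 4 of 5 tested galectins passed, 3 of them lower in DC and Lgals1 higher, against 25.5% of all genes tested, 11.5% lower and 14.0% higher.

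In Muc3-high cells Lgals4 had 3253 and 4299 CPM in DC, against 5183 and 5283 CPM in Si8. Its log2 fold change of -0.56 ± 0.22 missed the threshold (edgeR adjusted p = 0.0753), but passed it without DC 2 (-0.78, adjusted p = 0.0248) and without Si8 1 (-0.61, adjusted p = 0.042), and missed it in 11 of 17 alternatives. Here 2 of 4 tested galectins passed, Lgals2 and Lgals9, against 29.5% of all genes tested and 13.4% lower. The Lgals4 call in Mxd1-high cells was lost without DC 1 (edgeR adjusted p = 0.0517), with library totals alone (0.0895) and with states taken from clusters (0.0759). Over all kept cells, where 1 galectin was higher and 3 were lower in DC, against 24.7% of all genes past the threshold, 12.9% higher and 11.9% lower, its call (-1.28 ± 0.25, edgeR adjusted p = 0.0167) was lost without DC 1 (0.198) and without DC 2 (0.134).

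**Figure D2:**
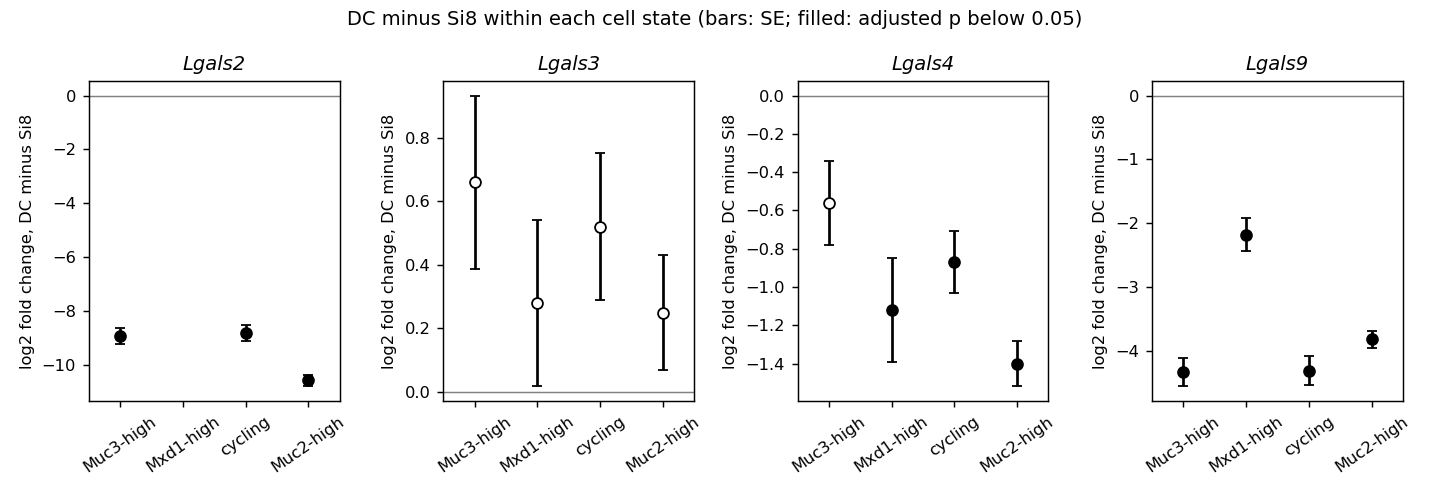
Log2 fold change, DC minus Si8, of 4 galectins within each state (points, with bars for the SE; filled points passed the adjusted threshold). Lgals2 in Mxd1-high cells is left out because DC held 1 UMI; each Lgals2, Lgals4 and Lgals9 point lies below 0 and each Lgals3 point above 0, none of the Lgals3 points past the threshold.

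Lgals3 did not pass the threshold between the tissues in any state. In Muc2-high cells it had 859 and 873 CPM in DC, against 444 and 628 CPM in Si8, with a log2 fold change of 0.25 ± 0.18 (edgeR adjusted p = 0.317). DC was higher in CPM without overlap, and the fold change was smaller than that of the CPM because the trimmed-mean scaling (TMM) of the fit used factors of 1.15 and 1.18 in DC, against 0.859 and 0.857 in Si8. With library totals alone the log2 fold change was 0.69 (adjusted p = 0.0171), but the median of all genes then moved to 0.46, against 0.022 with TMM, and 81.3% of called genes were higher in DC, against 47.3%. The other states gave 0.66 ± 0.27 in Muc3-high cells (edgeR adjusted p = 0.0903), 0.28 ± 0.26 in Mxd1-high (0.497) and 0.52 ± 0.23 in cycling cells (0.145). Without DC 1 the value passed in Muc3-high cells (1.08, adjusted p = 1.43e-05) and in cycling cells (0.84, adjusted p = 5.05e-05), and with no filter on low counts it passed in both too (adjusted p = 0.00756 and 0.00537). Thinning (1.26, adjusted p = 0.0106) and cluster states (1.14, adjusted p = 0.00035) also brought it past in Muc3-high cells. Library totals moved the share of higher calls to 78.7% in place of 51.9% in Mxd1-high cells and to 65.4% in place of 55.0% in cycling cells, and over all kept cells to 80.6% in place of 52.0%. They moved the median of all genes to 0.45 and 0.13 in those 2 states, and to 0.13 in Muc3-high cells.

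Lgals3 differed between the states. In Mxd1-high cells it had 3667 and 4618 CPM in DC, against 2303 and 2705 CPM in Si8. In cycling cells it had 290 and 465 CPM in DC, against 238 and 255 CPM in Si8. Every Mxd1-high sum exceeded every Muc2-high and cycling sum of both tissues, and every cycling sum lay below the Muc2-high sums of its tissue. The difference from Muc2-high cells, averaged over the tissues, was 2.64 ± 0.13 on the log2 scale for Mxd1-high cells, 6.24-fold (edgeR adjusted p = 6.41e-12). For cycling cells it was -1.52 ± 0.13 (edgeR adjusted p = 3.46e-09). Mean CPM were 4142 in Mxd1-high cells, against 866 in Muc2-high cells in DC, and 2504 against 536 in Si8. The size of the Mxd1-high rise thus depends on the TMM scaling of the fit, and the alternatives reached down to 2.23 on the log2 scale. The 3 state contrasts share the Muc2-high sums.

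In the Mxd1-high contrast 4 of 5 galectins passed, 3 of them higher, against 47.8% of all 11852 genes tested, 20.6% higher and 27.2% lower. All genes had a median of -0.26 here in the TMM scaling, against -0.68 by library totals, where 21.7% of calls were higher in place of 43.1%. Beside Lgals3, Lgals9 rose by 1.42 ± 0.12 (edgeR adjusted p = 8.16e-09) and Lgals4 by 0.81 ± 0.10 (7.94e-07). Mean CPM of Lgals9 in Si8 were 322 in Mxd1-high cells, against 286 in Muc2-high cells, and in DC 97.3 against 27.6. Those of Lgals4 were 8336 against 7014 in Si8 and 5236 against 3605 in DC. The size of both rises thus depends on the TMM scaling, and the alternatives reached down to 1.01 for Lgals9 and 0.39 for Lgals4. Lgals2 was called lower on average (-1.46 ± 0.47, edgeR adjusted p = 0.0144), but that value rests on the 1 UMI in DC, where Muc2-high cells had 362 UMIs (9.4-fold lower in Mxd1-high cells, 95% counting interval 1.68 to 372), and it missed the threshold without DC 2 (adjusted p = 0.0994), after thinning (0.219), with DESeq2 (0.0867) and with cluster states (0.232). A list of 10 colonic absorptive markers summed to 12268 to 13973 CPM in the Mxd1-high cells of DC and 10590 to 11201 CPM in those of Si8. In Muc2-high cells it summed to 2193 to 2229 CPM in DC, against 6069 to 6216 CPM in Si8, and Car1 and Aqp8 were at 0 in both states of Si8. Its part in the Lgals3 difference was not tested.

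Lgals3 was higher in cells with more Mxd1. Among non-cycling cells past the Muc2 gate, DC 1 had 688 CPM of Lgals3 in cells without an Mxd1 UMI, 1120 above 0 to 250 CPM of Mxd1, 2263 from 250 to 500, 3849 from 500 to 1000 and 3551 above that. In Si8 1 the same bins had 188, 570, 1084, 2133 and 2415 CPM. DC 2 had 690, 1071, 2689, 4554 and 4722 CPM, and Si8 2 had 321, 765, 1716, 2583 and 3221 CPM, with 16 cells in its top bin. Each next bin was higher in 3 libraries, and in DC 1 up to the fourth. Muc2 and the keratin gene Krt20 were also higher in the top bin than in cells without an Mxd1 UMI in each library. In DC 1 Krt20 had 697 CPM against 12.8 and Muc2 17247 against 4927. In Si8 1 Krt20 had 2708 CPM against 431 and Muc2 23946 against 8912. Their part in the Lgals3 levels was not tested. Each Mxd1-high cell had at least 2 Mxd1 UMIs, with a median of 6 and 4 in DC and 8 and 11 in Si8. Mxd1-high cells were also the shallowest. Over 16 alternatives, thinning to 2000 UMIs among them, the Lgals3 difference from Muc2-high cells ran between 2.23 and 2.78. Thinning kept the states gated at full depth, so it cannot tell whether the gates pick shallow cells.

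**Figure D3:**
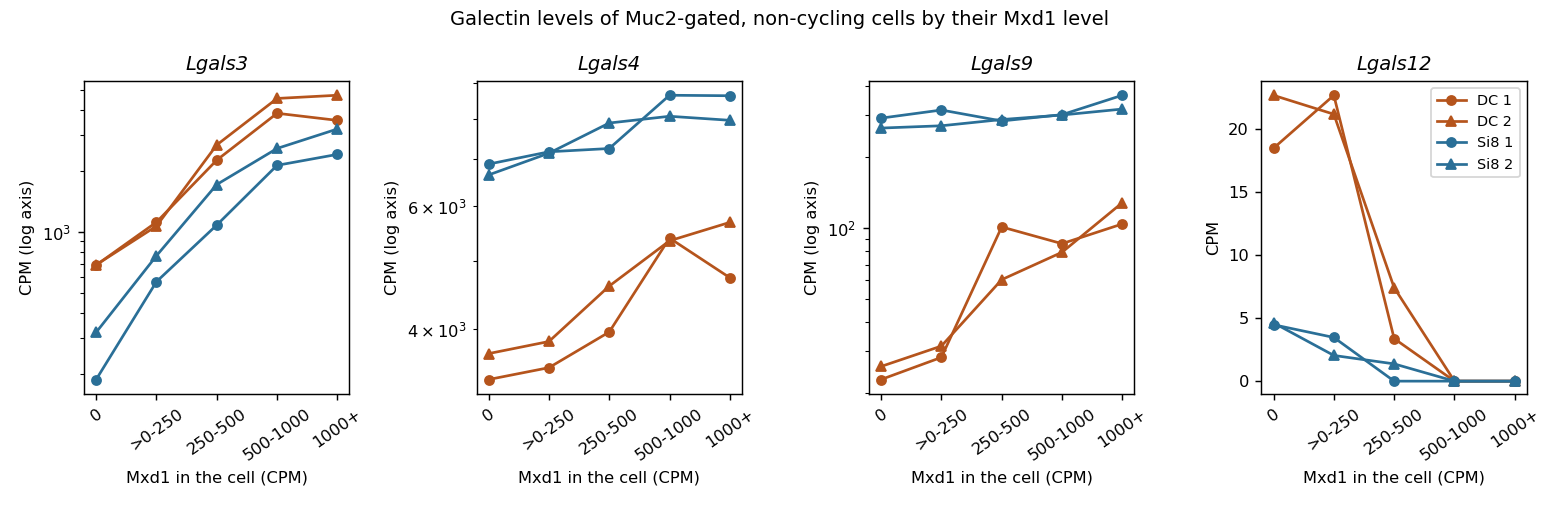
Level of Lgals3, Lgals4, Lgals9 (log axes) and Lgals12 (linear axis) in CPM against the Mxd1 level of the cells, one line per library (DC, then Si8). Lgals3 is higher in the 2 highest bins than in the 3 lower ones in all 4 libraries, though in DC 1 the top bin lies below the fourth, Lgals9 climbs mainly in DC, and Lgals12 goes to 0 in the 2 highest bins of each library.

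Single cells showed the same order. The median cell had 2963 and 3808 CPM of Lgals3 in the Mxd1-high state of DC, against 1767 and 2013 CPM in that of Si8. The median Muc2-high cell had 583 and 570 CPM in DC, against 191 and 328 CPM in Si8. The 10th percentile of Mxd1-high cells, 1427 and 2364 CPM in DC, exceeded the Muc2-high median of DC but not its 90th percentile in DC 1, 2096 CPM, so the states overlap cell by cell. After thinning, 99.2% of Mxd1-high cells in DC 1 and all 90 in DC 2 had an Lgals3 UMI, against 64.8% and 66.7% of Muc2-high cells in DC (94.9% and 96.0% unthinned).

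**Figure D4:**
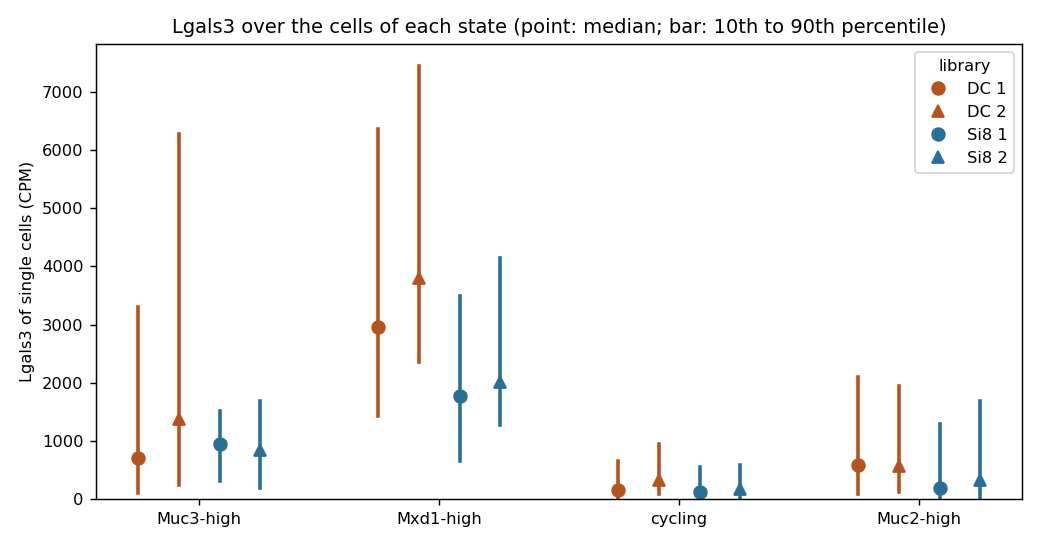
Lgals3 of single cells (CPM) by state and library, DC left of Si8 (points are medians, bars run between the 10th and the 90th percentile). Mxd1-high cells have the highest medians in every library and cycling cells the lowest; Muc3-high cells of DC 2 reach 6277 CPM at the 90th percentile.

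In Muc3-high cells Lgals3 had 1038 and 2064 CPM in DC, against 926 and 928 CPM in Si8. All 4 sums exceeded the Muc2-high sum of the same library, though within Si8 alone Lgals3 was not called higher. The averaged difference was 0.47 ± 0.13 (edgeR adjusted p = 0.00528). It missed the threshold without DC 2 (0.22, adjusted p = 0.142) and without Si8 1 (0.35, 0.0917) and with cuts doubled (0.10, 0.548), and it turned to -1.52 (adjusted p = 3.97e-07) with states taken from clusters. There the cluster that took the Muc3-high name held 335 Muc3-high, 331 cycling and 239 Muc2-high cells, while 671 Muc3-high cells sat in a cluster named Muc2-high. In DC 2, 95 of the 720 Muc3-high cells also passed the Mxd1 gate and had 7275 CPM of Lgals3, against 1613 CPM in the other 625; without such cells the difference was 0.35 (adjusted p = 0.0103). In Si8 1, 1 of 33 Muc3-high cells passed the immune cut, and immune markers summed to 695 CPM in that state, against 3.29 CPM in Si8 2.

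Beside Lgals3, 3 galectins passed in the Muc3-high contrast, all lower, against 41.8% of all genes tested, 19.7% higher and 22.1% lower. The share of higher calls was 47.0% in the TMM scaling and 76.7% by library totals, which moved the median of all genes to 0.30. Lgals9 fell by 0.93 on the log2 scale (SE 0.11, edgeR adjusted p = 4.63e-07), with 10.1 and 15.1 CPM in DC, against 256 and 248 CPM in Si8. Muc2-high cells had 26.4 and 28.8 CPM of it in DC and 304 and 269 CPM in Si8, so its CPM fell less in Si8. The tissue difference in this Lgals9 change (DC minus Si8) missed the threshold in the reported fit. By library totals it was -0.90 (edgeR adjusted p = 0.00344). For Lgals2 the averaged value was -0.92 ± 0.12 (edgeR adjusted p = 3.72e-06), with -1.75 ± 0.14 within Si8 and -0.08 ± 0.20 within DC, where the threshold was missed (adjusted p = 0.826). For Lgals4 the averaged value was -0.49 ± 0.10 (edgeR adjusted p = 0.000317), a call lost with library totals alone (-0.18, 0.108). It was -0.90 ± 0.14 within Si8 and -0.08 ± 0.14 within DC (adjusted p = 0.727), where the mean was 3776 CPM in Muc3-high cells, against 3605 CPM in Muc2-high cells. Muc2-high cells that also passed the Muc3 gate, 14.9% and 31.2% in DC and 12.8% and 16.6% in Si8, had more Lgals3 than the remainder in each library. In DC they had 1192 and 1093 CPM, against 785 and 750 CPM in the remainder, and in Si8 they had 969 and 1005 CPM, against 373 and 543 CPM in the remainder. Their Lgals2 in Si8 was 8005 and 7589 CPM, against 10634 and 10632 CPM in the remainder.

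Cycling cells had less Lgals3, Lgals4 and Lgals9 than Muc2-high cells. Lgals4 fell by 1.05 on the log2 scale (SE 0.10, edgeR adjusted p = 1.03e-08) and Lgals9 by 0.92 (SE 0.09, adjusted p = 5.39e-08). Altogether 4 of 5 galectins passed, 3 of them lower, against 59.9% of all genes tested, 29.5% higher and 30.4% lower, and the share of higher calls was 49.3% in the TMM scaling and 76.5% by library totals, which moved the median of all genes to 0.32. Lgals9 had 10.4 and 16.4 CPM in cycling DC cells, against 256 and 255 CPM in cycling Si8 cells. Muc2-high cells had 26.4 and 28.8 CPM of it in DC and 304 and 269 CPM in Si8, so its CPM fell less in Si8. The tissue difference in this state change (DC minus Si8) missed the threshold in the reported fit. By library totals it was -0.86 (edgeR adjusted p = 0.00229). Lgals2 averaged -0.26 ± 0.11 (edgeR adjusted p = 0.052), a value that turned to 0.08 by library totals and missed the threshold in 13 of 17 alternatives. It passed without DC 1 (-0.34, adjusted p = 0.0106), without Muc2-high cells past the Muc3 gate (-0.39, adjusted p = 0.00441), with no filter (0.0139) and without the 10 most abundant genes (0.0458). It was 0.61 ± 0.17 within DC and -1.13 ± 0.14 within Si8.

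**Figure D5:**
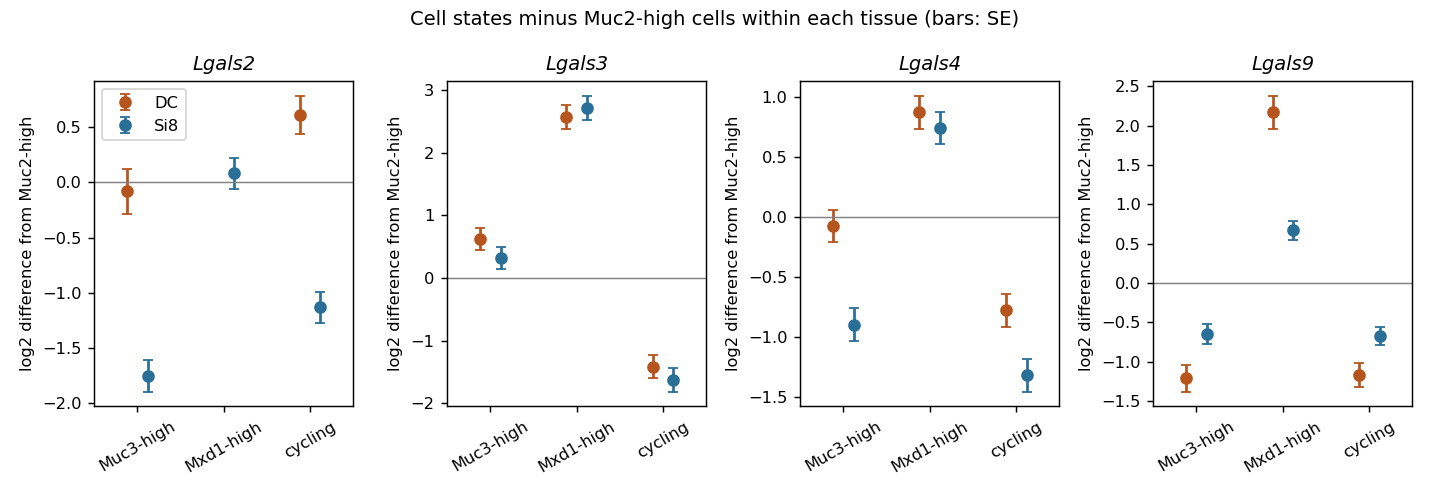
Log2 difference of each state from Muc2-high cells, DC left of Si8 (points, with bars for the SE; n = 2 libraries per tissue). Lgals3 has the same sign in both tissues in each state, Lgals9 in Mxd1-high cells has a larger value in DC, and Lgals2 of DC Mxd1-high cells is left out because it rests on 1 UMI.

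Lgals1 was counted very rarely. In Muc2-high cells it had 0 and 8 UMIs in DC, against 0 and 5 UMIs in Si8. It had no UMI in the Mxd1-high cells of any library, where 3 counts over the library would have been 1.14 to 6.11 CPM. Of the 4 states its highest was cycling, with 2.81 and 3.51 CPM in DC (22 and 64 UMIs), against 0.53 and 0.58 CPM in Si8 (2 and 9 UMIs). Both DC libraries lay above both Si8 libraries there, and the log2 fold change was 2.38 ± 0.43 (edgeR adjusted p = 0.00675). Against Muc2-high cells the cycling state was higher by 2.76 ± 0.56 (edgeR adjusted p = 0.000354). Within DC the value was 3.95 ± 0.55 (86 against 8 UMIs, adjusted p = 1.26e-05), and within Si8 it was 1.57 ± 0.92 and missed the threshold (11 against 5 UMIs, adjusted p = 0.158). The tissue call in cycling cells was lost in 1 of 17 alternatives, the one without Si8 2 (log2 fold change 2.49).

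The Lgals1 UMIs sat in few cells. Of 6555 kept DC cells 76 held its 131 UMIs, and of 3688 Si8 cells 20 held 25. In DC 4 cells with at least 4 UMIs held 34 of them. Of these 4 cells, 3 had UMIs of Ptprc, the pan-leukocyte gene, and 3 had UMIs of Vim, which encodes vimentin. The only Si8 cell with at least 4 Lgals1 UMIs had no UMI of Ptprc or Vim. Of the 76 DC cells with an Lgals1 UMI, 54 were cycling. The 11 DC cells past the immune cut held 36 Lgals1 UMIs at 381 CPM in DC 2, and the 50 Si8 cells past it held 4. Without cells past that cut Lgals1 over all kept cells missed the threshold (1.65, adjusted p = 0.0889, against 1.72 ± 0.46 and adjusted p = 0.044 with them); it also missed it without any 1 of the 4 libraries (adjusted p = 0.0705 to 0.339).

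Some state differences were themselves unlike between the tissues, by the interaction term of the same fit. Galectins past the threshold, each with the higher value in DC, numbered 2 of 5 in the Muc3-high contrast, where 15.2% of all genes tested passed and 10.1% were higher. In the Mxd1-high contrast 1 of 5 passed (5.75% of all genes, 3.21% higher), and in the cycling contrast 1 of 5 (14.7%, 9.8% higher). Lgals9 in Mxd1-high minus Muc2-high cells was 2.17 ± 0.21 in DC and 0.67 ± 0.13 in Si8, a difference of 1.5 ± 0.24 (edgeR adjusted p = 0.000439). The Lgals3 difference for Mxd1-high cells, 2.57 ± 0.19 in DC and 2.72 ± 0.19 in Si8, differed by -0.15 ± 0.25 (adjusted p = 0.839), with a 95% interval of -0.65 to 0.34. Library totals changed the share of higher interaction calls to 26.2% in the Muc3-high contrast (66.4% in the TMM scaling), 75.8% in the Mxd1-high contrast (55.9%) and 14.3% in the cycling contrast (66.8%), and moved the medians of all genes to -0.27, 0.19 and -0.30.

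Among other galectins and galectin-like genes, 4 of 7 listed could be tested in Muc2-high cells, and 1 was higher and 3 lower in DC, against 18.6% higher and 20.7% lower of all genes tested. Lgals12, known from adipocytes, was the higher one, with a mean of 20.5 ± 1.68 CPM in DC, against 3.38 ± 0.40 CPM in Si8 (log2 fold change 2.18 ± 0.16, edgeR adjusted p = 0.000282). It had no UMI in Mxd1-high cells, which makes it at least 7.65-fold lower than in Muc2-high cells in DC and at least 3.95-fold lower in Si8, with a floor of 3 counts over the libraries of the tissue. Lgals3bp, a secreted glycoprotein that binds galectin-3, averaged 19.7 ± 4.33 CPM in DC, against 51.1 ± 0.55 CPM in Si8 (log2 fold change -1.80 ± 0.16, edgeR adjusted p = 0.000442). Lgals8, a galectin with a pair of domains, averaged 13.9 ± 1.37 CPM in DC, against 17.2 ± 2.42 CPM in Si8 (-0.75 ± 0.16, adjusted p = 0.0121), and Lgalsl, a galectin-like gene, had 9.51 and 9.97 CPM in DC, against 10.8 and 9.78 CPM in Si8 (-0.52 ± 0.15, adjusted p = 0.0321). The Lgalsl levels overlap between the tissues, and its call rests on the TMM factors. In Mxd1-high cells Lgals8 and Lgalsl both rose by 1.11 on the log2 scale over Muc2-high cells (edgeR adjusted p = 5.91e-05 and 0.000878), and Lgals3bp was called higher too. The Mxd1-high cells of DC held only 14 and 12 UMIs of Lgals8 and 11 and 6 of Lgalsl. In Si8 Lgals8 had 30.5 and 17.9 CPM there, against 18.9 and 15.5 CPM in Muc2-high cells, so the size of its rise depends on the TMM scaling.

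Of 31 genes for enzymes that build or cap the lactosamine ligands of galectins, 30 were tested in Muc2-high cells, with 8 higher and 15 lower in DC, where 18.6% of all genes tested were higher and 20.7% lower, and a median log2 fold change of -0.41, against 0.022 over all genes. Gcnt1, which makes core 2 branches of O-glycans, had 67.1 and 52.8 CPM in DC, against 1.06 and 0.81 CPM in Si8 (log2 fold change 5.58 ± 0.23, edgeR adjusted p = 4.33e-05). Gcnt2, the enzyme that branches polylactosamine, had 2 and 3 UMIs in DC, against 158 and 281 UMIs in Si8 (-6.73 ± 0.33, adjusted p = 7.24e-05). St3gal1, a sialyltransferase, had 1 and 6 UMIs in DC, against 152 and 224 UMIs in Si8 (-6.10 ± 0.34, adjusted p = 0.000101). Of 22 binding partners 19 were tested, with 3 higher and 7 lower in DC (18.6% and 20.7% of all genes) and a median of -0.34. Counts and medians of both lists are those of the TMM scaling, and library totals moved the median of all genes to 0.46. The protocadherin gene Cdhr5 of the brush border had 112 and 129 CPM in DC, against 334 and 312 CPM in Si8 (-1.87 ± 0.13, adjusted p = 0.000196). Muc1, a transmembrane mucin, had 400 UMIs in DC and 1 in Si8, a ratio of 420-fold (95% counting interval 74.9 to 16627), and Sis, the brush-border sucrase-isomaltase, had 1 UMI in DC and 1807 in Si8, where it was 1721-fold higher (309 to 68025).

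The genes most like Lgals2, Lgals3, Lgals4 and Lgals9 across the 16 sums were found by Pearson correlation of log2(CPM + 10) over 4099 genes that reached 50 CPM in some sum. The sums share libraries and depth and take in the difference between the tissues. These are thus descriptions, and they do not show likeness across the states within a tissue. Lgals2 was nearest to B4galnt1 (r = 0.993), Reg3g (0.978), an antimicrobial lectin, and Defa24 (0.972), a Paneth-type defensin. Lgals3 was nearest to Fam214b (0.953), Pmp22 (0.953) and Mgst3 (0.951), Lgals4 to Krt20 (0.952), a keratin of mature surface epithelium, Cd82 (0.937) and Igsf5 (0.935), and Lgals9 to Prkca (0.96), Prom1 (0.953) and Suox (0.952). Between members, Lgals9 went with Lgals2 (r = 0.879) and Lgals4 (0.804), while Lgals3 had r = 0.02 with Lgals9, -0.31 with Lgals2 and 0.48 with Lgals4.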

How the data were processed

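The deposited files hold raw UMI counts for each gene and barcode. Per the submitters' processing notes, the authors used Cell Ranger 2.1.1 and mm10; no header records any normalization or the annotation. Gene coordinates come from GENCODE M21 (28341 of 28694 identifiers matched, 98.8%) and promoters from RefSeq (4 of 5 galectins matched by symbol). Of all barcodes 10522 had 500 genes or more and no more than 20% mitochondrial UMIs. Scrublet (scanpy 1.11.5) marked 18 barcodes (0.171%), too few to have worked, so the 279 highest scores were removed, 0.8% per 1000 cells of a library. Gate cuts were set after the distributions of the gate genes were seen.

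Summed UMIs per state and library (20 cells or more) were tested with edgeR 4.0.16 (quasi-likelihood, two-sided, TMM, filterByExpr minimum count 10, Benjamini-Hochberg over all genes tested, threshold 0.05). The state fit used library as a block, state, and state by tissue. The SE came from the fold change and its F value, and the fits were tested on simulated data. CPM values use library totals, without TMM.

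Alternatives were DESeq2 1.42.0, library totals, no filter, other cuts, Leiden clusters (leidenalg 0.10.2), thinning and left-out libraries; the removal of immune-marked cells, of Muc2-high cells past the Muc3 gate and of Muc3-high cells past the Mxd1 gate was chosen after seeing the data. Named genes were the 5 galectins, other galectins, the 3 largest called changes of each list in Muc2-high cells, and the 3 genes most correlated with each galectin. The genes most correlated with Lgals1 are not reported here. Members and lists were chosen with earlier results of these data known.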

Additional observations from a re-analysis of the deposited data

Results flagged for a closer look

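The change between states differed between DC and Si8 for 4 contrasts by the interaction term of the edgeR fit. For Lgals4 in Muc3-high minus Muc2-high cells the value was -0.08 ± 0.14 in DC and -0.90 ± 0.14 in Si8, a difference of 0.82 (adjusted p = 0.00538). It missed the threshold without Si8 1 (adjusted p = 0.0707), without Si8 2 (0.0985), with library totals (0.0717) and with cluster states (0.105). For Lgals2 in the same contrast it was -0.08 ± 0.20 in DC and -1.75 ± 0.14 in Si8, a difference of 1.67 (adjusted p = 7.96e-05), with 116 UMIs behind the DC Muc3-high value. For Lgals9 in Mxd1-high minus Muc2-high cells it was 2.17 ± 0.21 in DC and 0.67 ± 0.13 in Si8, a difference of 1.5 (adjusted p = 0.000439), and the alternatives ran between 1.37 and 1.81. For Lgals2 in cycling minus Muc2-high cells it was 0.61 ± 0.17 in DC and -1.13 ± 0.14 in Si8, a difference of 1.74 (adjusted p = 4.16e-05), with 379 UMIs in cycling DC cells against 125735 in cycling Si8 cells. The part of free RNA in the low Lgals2 values of DC was not tested.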

How the results depend on the processing

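Of the alternatives run, 777 of 836 values of single galectins stayed on their side of the threshold, 34 passed it newly, 24 lost it and 1 called value changed sign, that of Lgals3 in Muc3-high minus Muc2-high cells, at -1.52 with cluster states. Of 181 counts of galectins past the threshold 14 moved over 1.5 times. The Muc3-high tissue count was 4 with cluster states, against 2. Over all kept cells it was 2 to 3 with 1 library left out (2 without DC 1 and 2 without DC 2), against 4. The Muc3-high interaction count was 1 to 3 with 1 library left out, and 1 with cluster states, against 2. The Mxd1-high interaction count was 2 with no filter, without the 10 most abundant genes, with cuts halved and without Muc2-high cells past the Muc3 gate, against 1. The cycling interaction count was 2 with library totals and without Muc2-high cells past the Muc3 gate, and 3 with DESeq2 and with cuts doubled, against 1. The cause was not tested. Mean levels per state and tissue stayed within 1.5 times for 31 of 32 as a mean over cells, and shares of cells with a UMI for 18 of 32 without thinning. A lone library left in an arm was assumed to vary like the others.

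Same-numbered libraries correlated in their deviations at r = 0.28 in Muc2-high, 0.04 in Muc3-high, 0.25 in Mxd1-high and 0.26 in cycling cells, but the labels do not pair them. With the replicate number as a block, Lgals3 in cycling cells passed (0.48, adjusted p = 0.0449) and no other galectin changed its call. Over all genes, 37 of 181 counts past the threshold moved over 1.5 times. Between DC and Si8 they ran between 2642 and 6953 in Muc2-high cells (4770 in the fit reported), 676 and 3555 in Muc3-high (2945), 604 and 1860 in Mxd1-high (1237), 953 and 3930 in cycling (3010) and 1379 and 5142 in all kept cells (3235). Against Muc2-high cells they ran between 1861 and 6444 for Muc3-high (4953), 3374 and 6682 for Mxd1-high (5662) and 3698 and 8019 for cycling cells (7099), and for the interactions between 433 and 2702 (1799), 258 and 895 (682) and 410 and 3085 (1739), in that order. With cuts halved, Muc3-high cells of Si8 1 were too few to be summed, and with cuts doubled, Mxd1-high cells of Si8 2. Depth limits Lgals1, Lgals2 in DC, and the Mxd1-high state, with 1090016 UMIs in DC.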
